A study of Sus scrofa with 12 samples.

Results

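The stathmins and a set of neuronal cytoskeleton genes were followed across the endothelial induction of porcine iPS cells. The set was STMN1, STMN2, STMN3, STMN4, TUBB3, GAP43, DCX, MAP2, ELAVL4 and NEFM, 10 genes chosen by name and looked up by symbol among the Ensembl pig identifiers. Of these, 9 were found among the 19681 genes with a value, and NEFM, which was not matched by symbol, is not analysed here. STMN2 opened the set because its level had been seen to rise steeply at day 12. Its values are therefore given as a description with no test, and the question was whether the other genes of the set, and wider neuronal genes, moved with it.

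The values are FPKM (fragments per kilobase of a gene's transcripts relative to all fragments counted) from RNA sequencing of 12 libraries, 3 biological replicates (A, B and C) in each of 4 groups. IEC2 were porcine iPS cells after 2 days of induction with CHIR99021, an inhibitor of the kinase GSK3 that activates Wnt signalling. IEC4 were the same cells at day 4, after the next 2 days with BMP4, FGF2 and VEGF, and IEC12 were those at day 12, after the change to endothelial growth medium (EGM-2) with VEGF. AOC is a porcine endothelial cell line, not a stage of this induction, and served as the endothelial reference. The IEC12 culture was profiled without sorting for the endothelial surface protein CD31, and libraries of undifferentiated iPS cells and of sorted cells are not analysed here. All 3 IEC groups came from iPS cells grown on Matrigel.

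Stathmins bind free tubulin dimers and promote the shortening of microtubules. STMN1 is cytosolic and is found in many dividing cells, whereas STMN2, STMN3 and STMN4 carry a membrane anchor and are known mainly from neurons, where STMN2 concentrates in growth cones and marks growing axons. Of the other genes, TUBB3 encodes the class III β-tubulin of neurons, MAP2 and DCX bind and stabilise microtubules in dendrites and migrating neurons, GAP43 is a growth-cone membrane protein, ELAVL4 an RNA-binding protein of neurons and NEFM a neurofilament subunit.

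The labels call the IEC groups induced endothelial cells, and the markers of that cell type were low at day 12. Of 13 endothelial markers found, 13 had an IEC12 mean under 1 FPKM, with CDH5 (VE-cadherin) listed at 0 in the IEC12 libraries and PECAM1 (CD31) at a mean of 0.0620 FPKM. ENG (endoglin) was at 0.278, 0.653 and 2.02 FPKM in IEC12, which overlapped AOC at 1.23, 1.02 and 0.361. The summed level of the list was 0.703 to 2.63 FPKM in IEC12, 4.63 to 6.87 in IEC4 and 5.78 to 9.55 in IEC2, against 353.8 to 475.2 in AOC. Of markers of other cell types in IEC12, 7 cardiac and smooth muscle genes summed to between 0.333 and 0.695 FPKM and 2 pluripotency genes to between 0.248 and 1.52. The 7 fibroblast and mesenchymal genes summed to 62.4 to 80.7 FPKM in IEC12, 47.5 to 58.5 in IEC4, 85.0 to 115.5 in IEC2 and 18.3 to 23.6 in AOC, and in the IEC groups COL3A1 took most of that sum (58.9 to 77.5 FPKM in IEC12). The groups are therefore called by their day below. The number of reads behind a library is unknown, and the FPKM of a library summed to between 335976 (IEC2) and 457194 (IEC12).

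STMN2 (ENSSSCG00000006160) lies on chromosome 4, at chr4:56952968-57006744 of the pig build Sscrofa11.1 in the RefSeq annotation. It was the stathmin that set day 12 apart, at 375.0, 396.7 and 370.1 FPKM in IEC12 replicates A, B and C (381 ± 14.1, SD, n = 3). In IEC4 it was at 10.3, 15.1 and 8.15 FPKM (11.2 ± 3.56) and in IEC2 at 13.0, 9.68 and 7.67 FPKM (10.1 ± 2.68). In AOC it was at 0.185, 0.343 and 0.466 FPKM (0.331 ± 0.141). The order was thus IEC12, then IEC4 and IEC2, whose libraries overlapped, then AOC, and the groups other than that pair did not overlap. The IEC12 mean was 34.0 times that of IEC4 and 37.6 times that of IEC2, and in each IEC12 library STMN2 ranked between 127 and 139 of the 19681 genes by FPKM. It was 1149 times the AOC mean, which lay under 1 FPKM. On the log2(FPKM + 1) scale used for the fits the difference between IEC12 and IEC4 was 5.01, the third highest among the 10542 genes tested, and its place among them is again a description. In bulk RNA, a larger share of cells of one type and more RNA per cell cannot be told apart. STMN2 is overlapped by a long noncoding RNA gene in the annotation, and whether the counting used strand is not given in the sources used here, so reads from the pair cannot be told apart.

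**Figure D1:**
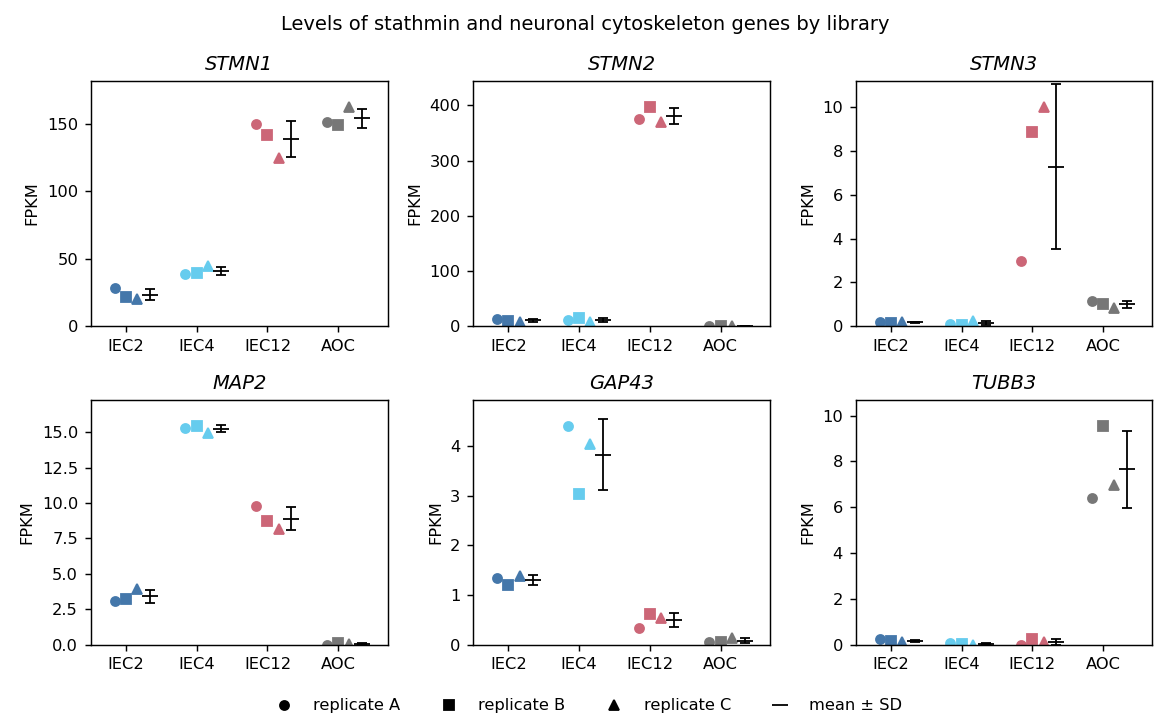
Level in FPKM (y axes, linear and on a different scale in each panel) of STMN1, STMN2, STMN3, MAP2, GAP43 and TUBB3 in the 3 libraries of IEC2, IEC4, IEC12 and AOC (x axes), with replicates as symbols and the mean ± SD as a bar beside them. STMN2 sits between 370.1 and 396.7 FPKM in IEC12 and at or below 15.1 elsewhere, STMN1 is high in IEC12 and AOC, MAP2 and GAP43 peak in IEC4, and TUBB3 is above 1 FPKM in AOC.

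STMN1 (ENSSSCG00000026257, chr6:83356404-83362546) followed another course. It stood at 28.1, 21.7 and 19.9 FPKM in IEC2 (23.2 ± 4.27, SD, n = 3), 38.3, 39.7 and 44.5 in IEC4 (40.8 ± 3.23) and 150.5, 142.0 and 124.6 in IEC12 (139 ± 13.2). The AOC libraries were at 151.3, 149.3 and 162.6 FPKM (154 ± 7.17). IEC2, IEC4 and IEC12 did not overlap, whereas IEC12 and AOC did. STMN1 rose from day 2 to day 4 by 0.80 on the log2 scale (SE 0.151, limma adjusted p = 0.00284) and from day 4 to day 12 by 1.74 (SE 0.151, adjusted p = 4.57e-05). The first of these calls was lost with median-of-ratios scaling of the libraries (0.53, adjusted p = 0.0740). From day 2 to day 12 the rise was 2.54 (adjusted p = 2.91e-06). AOC exceeded IEC2 by 2.69 (adjusted p = 1.03e-08), and the AOC and IEC12 means differed by 0.15 (SE 0.133, adjusted p = 0.346), which was not called. The levels of STMN1 in the endothelial line thus overlapped those of day 12, where those of STMN2 lay far apart.

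Genes of cell division rose together with STMN1 from day 4 to day 12, though not from day 2 to day 4. Of 10 such genes found and tested, 8 rose from IEC4 to IEC12 and 0 fell at an adjusted p under 0.05, with a median difference of 0.84 on the log2 scale against -0.15 over all genes tested, of which 17.3% rose. CCNB1, the mitotic cyclin B1, went from 30.6 ± 0.998 to 110.2 ± 6.27 FPKM. CDK1, its kinase partner, went from 12.5 ± 2.53 to 40.9 ± 2.98 FPKM, and BUB1 kept its call under 2 of 13 alternative settings. The summed level of the list was 588.1 to 679.5 FPKM in IEC2, 526.4 to 551.0 in IEC4, 914.3 to 1072 in IEC12 and 1016 to 1167 in AOC, and from day 2 to day 4, when STMN1 also rose, 1 of the 10 rose and 4 fell, where 24.8% and 12.5% of all genes did. Its part in the STMN1 result was not tested.

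STMN3 (ENSSSCG00000038405, chr17:62600450-62609851), a neuronal stathmin close to STMN2, also appeared at day 12, at a far lower level. It was at 2.98, 8.89 and 10.01 FPKM in IEC12 (7.29 ± 3.78, SD, n = 3) and at 1.13, 1.01 and 0.837 in AOC (0.989 ± 0.145). In IEC2 it was at 0.194, 0.1603 and 0.171 FPKM and in IEC4 at 0.113, 0.0374 and 0.222, which overlapped. IEC12 lay above the other groups in all 3 libraries, of which replicate A was the lowest. STMN3 exceeded the filter on low values in the 9 IEC libraries through IEC12 alone, so that a difference was built into its selection, and its differences from IEC12 are given with no test. The IEC12 mean was 58.7 times that of IEC4 and 41.7 times that of IEC2. On the log2 scale these differences were 2.75 and 2.69 with the pseudocount of 1, and 4.95 and 4.57 with one of 0.1. AOC differed from IEC12 by -1.93. The excess of AOC over IEC2 (0.76, adjusted p = 0.0444) lost its call without any 1 of the IEC2 or AOC libraries, with an adjusted p between 0.0709 and 0.110.

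STMN4 (ENSSSCG00000009662, chr14:10986510-11007757), the last neuronal stathmin, did not reach 1 FPKM in any library. It was listed at 0 in the 3 IEC4 and 3 AOC libraries and in 2 of 3 IEC12 libraries, with 0.0423 FPKM in the other, and at 0.156, 0.163 and 0.454 FPKM in IEC2. A value listed at 0 can be a failed estimate. STMN4 did not accompany STMN2 at day 12, and it passed no filter and was not tested.

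The makeup of the stathmin family thus changed with the stage. FPKM is a level per length, so the members can be summed. The 4 genes summed to 33.8 ± 6.82 FPKM in IEC2, 52.2 ± 3.12 in IEC4, 526.9 ± 21.4 in IEC12 and 155.7 ± 7.15 in AOC (SD, n = 3 each). STMN1 made up 69.0 ± 1.45% of that sum in IEC2, 78.4 ± 5.89% in IEC4 and 99.2 ± 0.0508% in AOC, but 26.4 ± 1.93% in IEC12. STMN2 made up 29.7 ± 2.195%, 21.4 ± 6.06% and 0.211 ± 0.0829% in IEC2, IEC4 and AOC and 72.2 ± 1.19% in IEC12. STMN3 accounted for 0.564 to 1.98% of the sum in the IEC12 libraries. STMN2 was the leading stathmin in IEC12 and STMN1 in the other groups, in 3 of 3 libraries each. Since STMN2 was chosen by its day 12 level, these shares are a description.

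**Figure D2:**
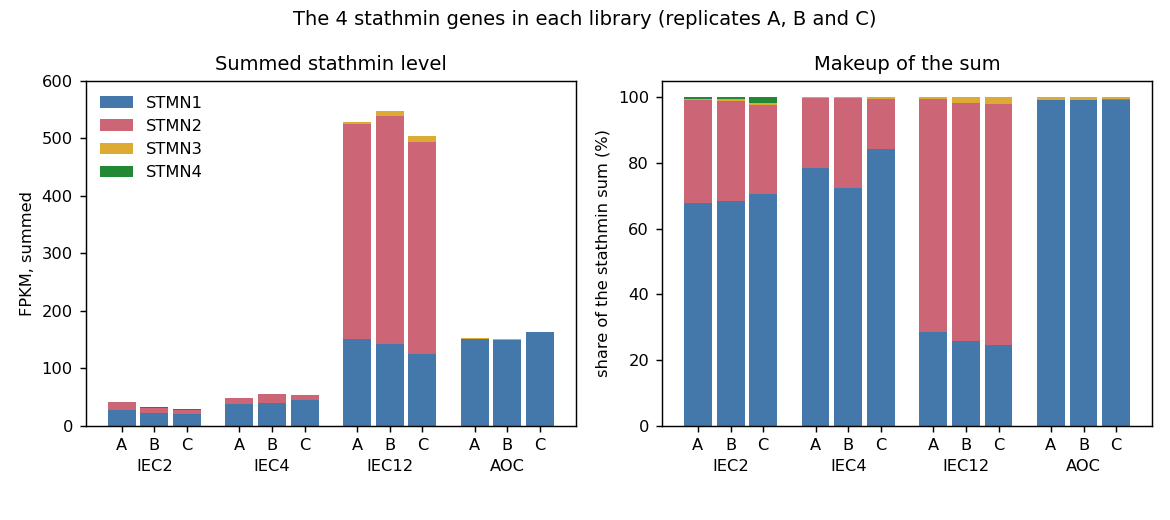
Left, FPKM of STMN1, STMN2, STMN3 and STMN4 stacked in each of the 12 libraries (bars, replicates A, B and C of IEC2, IEC4, IEC12 and AOC), and right, the same as a share of the stathmin sum in percent. The sum averages 526.9 FPKM in IEC12, where STMN2 takes 71.0 to 73.3% of it, and STMN1 takes 99.1 to 99.2% in AOC.

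MAP2 (ENSSSCG00000016151, chr15:112156578-112462932) was the microtubule-binding member with a level above 1 FPKM in the IEC groups, and it peaked before STMN2. It stood at 3.07, 3.23 and 3.94 FPKM in IEC2 (3.42 ± 0.465, SD, n = 3), 15.3, 15.5 and 15.0 in IEC4 (15.3 ± 0.243) and 9.76, 8.75 and 8.21 in IEC12 (8.91 ± 0.791). In AOC it was at 0, 0.0898 and 0.0148 FPKM. No groups overlapped, and the order was IEC4, IEC12, IEC2 and AOC. MAP2 rose from day 2 to day 4 by 1.89 on the log2 scale (SE 0.150, limma adjusted p = 2.32e-05) and then fell by 0.72 to day 12 (SE 0.150, adjusted p = 0.00431), which left it 1.17 above day 2 (adjusted p = 0.000251). The difference of AOC from IEC12 was -3.26 (SE 0.136, adjusted p = 2.93e-09) and that from IEC2 -2.09 (adjusted p = 9.68e-08). Between day 4 and day 12, when STMN2 rose, MAP2 went the other way in all 3 libraries.

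GAP43 (ENSSSCG00000031244, chr13:144364314-144458136) had a similar early peak at lower levels. It was at 1.35, 1.20 and 1.38 FPKM in IEC2 (1.31 ± 0.101, SD, n = 3), 4.42, 3.04 and 4.05 in IEC4 (3.84 ± 0.712), 0.341, 0.624 and 0.534 in IEC12 (0.50 ± 0.144) and 0.0407, 0.0598 and 0.128 in AOC. The 4 groups did not overlap, in the order IEC4, IEC2, IEC12 and AOC. The rise from day 2 to day 4 was 1.06 on the log2 scale (SE 0.176, limma adjusted p = 0.00146), and from day 4 to day 12 GAP43 fell by 1.68 (SE 0.176, adjusted p = 0.000123). At day 12 it was below day 2 by a difference of -0.63 (adjusted p = 0.0171), a call that was lost without IEC2 replicate C (adjusted p = 0.0515) or IEC12 replicate A (adjusted p = 0.0543). AOC lay below IEC2 by -1.10 (adjusted p = 3.66e-05). Its difference from IEC12 (-0.47, adjusted p = 0.0145) concerned means under 1 FPKM and lost its call without IEC12 replicate B, AOC replicate A or AOC replicate B, with an adjusted p of 0.0626, 0.0588 and 0.0537.

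TUBB3 (ENSSSCG00000002639), a gene used widely to stain neurons, was not raised with STMN2. It was at 0, 0.229 and 0.0894 FPKM in IEC12, at 0.0505, 0.0402 and 0 in IEC4 and at 0.221, 0.158 and 0.131 in IEC2, with IEC12 overlapping both earlier stages. It was at 6.40, 9.55 and 6.98 FPKM in AOC (7.65 ± 1.68, SD, n = 3), above every IEC library. TUBB3 passed the filter through AOC alone, so it entered only the fit that included AOC. The AOC mean was 72.1 times that of IEC12 and 45.0 times that of IEC2, and the log2 differences were 2.95 and 2.87, given with no test because selection by AOC built them in. The neuronal β-tubulin was thus above 1 FPKM in the endothelial line and at or below 0.229 FPKM in the culture with 381 FPKM of STMN2. How the counting divided reads among the similar β-tubulin genes is not given in the sources used here, and TUBB3 had no entry in the RefSeq table from which positions were taken.

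DCX (ENSSSCG00000012585, chrX:91317671-91644572) and ELAVL4 (ENSSSCG00000037291, chr6:161784146-161928953) stayed under 1 FPKM in all 12 libraries and were not tested. DCX was at 0, 0.0617 and 0.00977 FPKM in IEC12, and its highest value was 0.526 FPKM, in IEC2. ELAVL4 was at 0.0772, 0.119 and 0.264 FPKM in IEC12, and its highest value was 0.544 FPKM, in AOC. Both genes overlapped between IEC12 and each of IEC2 and IEC4. RefSeq lists ELAVL4 as a noncoding gene in this build, and both genes are overlapped by long noncoding RNA genes.

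Counted over the set, 5 members including STMN2 passed the filter in the 9 IEC libraries and 6 in all 12, and STMN2 is left out of the following counts. From IEC2 to IEC4, 3 of 4 members tested (STMN1, GAP43 and MAP2) rose and 0 fell, where 37.3% of all 10542 genes were called and 24.8% rose. From IEC4 to IEC12, STMN1 rose and GAP43 and MAP2 fell, and STMN3, selected by its IEC12 level, was also higher, where 44.2% of all genes were called, 17.3% higher and 26.9% lower. From IEC2 to IEC12, STMN1 and MAP2 rose and GAP43 fell, and STMN3 was again higher, where 43.6% of all genes were called, 24.2% higher and 19.3% lower. Between AOC and IEC12, GAP43 and MAP2 were lower in AOC among 5 in the fit, with TUBB3 (selected by AOC) higher and STMN3 (selected by IEC12) lower, where 58.5% of 11053 genes were called. Between AOC and IEC2, STMN1 and STMN3 were higher in AOC and GAP43 and MAP2 lower, with TUBB3 higher by selection, where 63.8% were called, 26.7% higher and 37.1% lower. The libraries of the 2 groups did not overlap for 53.5% of all genes between IEC2 and IEC4, 56.3% between IEC4 and IEC12, 54.4% between IEC2 and IEC12, 66.3% between IEC12 and AOC and 71.5% between IEC2 and AOC, which is the background for the overlaps given above. With the stricter limits used by the study, 0 members were called between stages, where 1.18% (day 4 against day 2), 0.939% (day 12 against day 4) and 1.22% (day 12 against day 2) of all genes were. Under the same limits MAP2 alone was called between AOC and IEC12, where 4.41% of genes were, and 0 members between AOC and IEC2, where 5.47% were. These counts depend on the pseudocount of 1, which shrinks the differences of low genes. With 0.1, MAP2 (-4.75) and GAP43 (-3.03) between AOC and IEC2 also passed them. Of the genes selected by 1 group and given with no test, STMN3 between IEC12 and both earlier stages and TUBB3 between AOC and IEC12 (5.37) and IEC2 (4.84) then differed by more than 3. With 4 or 5 genes tested against such backgrounds, some of which passed the filter through the group where they were high, these counts describe the members and nothing more is read from them. Comparisons that name the same group share its libraries.

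A wider set of 103 neuronal and neural genes in 6 lists moved in both directions at day 12. Of these, 88 were found by symbol, and 64 of the 88 had an IEC12 mean under 1 FPKM, 13 of them listed at 0 in the 3 libraries. From IEC4 to IEC12, 29 passed the filter, of which 8 rose (27.6%) and 6 fell (20.7%), and 15 were not called, where 17.3% of all genes rose and 26.9% fell. Their median difference was 0.15 on the log2 scale, against -0.15 over all genes. With libraries scaled to equal totals 7 rose and 7 fell, and without the filter 8 rose and 11 fell of 83 tested. Without the filter, 4815 of all 18415 genes were called in either direction. From IEC2 to IEC12, 9 rose (31%) and 8 fell (27.6%), where 24.2% and 19.3% of all genes did, with a median of -0.24 against 0.03, and with libraries scaled to equal totals 7 rose and 11 fell. From IEC2 to IEC4, 9 rose (31%) and 8 fell (27.6%), where 24.8% and 12.5% of all genes did, with a median of -0.13 against 0.20, and with median-of-ratios scaling 6 rose and 12 fell. In AOC against IEC12, 8 of 35 tested were higher and 20 lower, where 22.4% and 36.2% of all genes were, but 4 of the 8 had passed the filter through AOC alone. NEUROG2 and PAX6, also among the 8, reached 3 libraries only with AOC counted, so selection favoured their higher level in AOC as well. Without any 1 of the AOC libraries 4 were higher, and these include NEUROG2 and PAX6. Of the genes tested, 3 of 29 (NRCAM, NCAM2 and MSI1) and 7 of 35 had passed the filter through 1 group alone, and the counts include them. The counts also include genes that needed 1 group to pass though single libraries of others reached 1 FPKM, such as CHGA (IEC12), NEUROG2 and PAX6 (both AOC).

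In the list of cytoskeleton and axon growth genes, 2 of 10 tested rose from IEC4 to IEC12 and 2 fell, where 17.3% and 26.9% of all genes did. MARCKS, an actin-binding protein at the membrane, went from 49.2 ± 11.0 to 127 ± 16.8 FPKM (1.36, limma adjusted p = 0.000459) and stood at 142 ± 10.6 in AOC, a course like that of STMN1. NEFL, the light neurofilament subunit and partner of NEFM, was at 0.00748, 0.191 and 0.124 FPKM in IEC2, 6.30, 3.89 and 5.77 in IEC4 and 7.96, 12.0 and 15.9 in IEC12, and was listed at 0 in AOC. NEFL thus rose at day 4 (2.495, adjusted p = 8.80e-05) and again at day 12 (1.01, SE 0.256, adjusted p = 0.0109), and no IEC groups overlapped. The later of these calls was lost with a pseudocount of 0.1. NEFL thus followed the direction of STMN2, starting earlier, but other neuronal intermediate filament genes of the list did not share its course. PRPH had means of 0.0309, 2.67 and 0.235 FPKM in IEC2, IEC4 and IEC12, and INA had an IEC12 mean of 0.0630 FPKM. Neither passed the filter, and they were not tested. MAP1A, a microtubule-associated protein, peaked at day 4 as MAP2 did, at 1.28 ± 0.746, 7.14 ± 1.23 and 2.96 ± 0.425 FPKM in IEC2, IEC4 and IEC12, and fell from IEC4 to IEC12 by 1.03 (adjusted p = 0.0116). TUBB4A, a β-tubulin of the nervous system, was at 5.36 FPKM in IEC4 and 0.623 in IEC12 and fell by 2.02 (adjusted p = 0.000259).

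Some genes of this list were high at every stage. KIF5C, a kinesin motor of neurons, was at 121 ± 8.08, 64.0 ± 10.1 and 57.5 ± 7.55 FPKM in IEC2, IEC4 and IEC12 and at 0.0295 in AOC. DCLK1, a relative of DCX, was at 130 ± 10.3, 108 ± 13.6 and 104 ± 4.34 FPKM in the IEC groups and at 6.01 ± 0.270 in AOC. Both were lower in AOC than in IEC12, by log2 differences of -5.82 (adjusted p = 3.42e-11) and -3.90 (adjusted p = 1.96e-10), in 3 of 3 libraries. Neither rose with STMN2, since IEC12 against IEC4 gave -0.15 (adjusted p = 0.439) for KIF5C and -0.06 (adjusted p = 0.732) for DCLK1. MAP1B, a microtubule-associated protein of growing axons, lay between 52.2 and 82.4 FPKM in all 12 libraries.

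**Figure D3:**
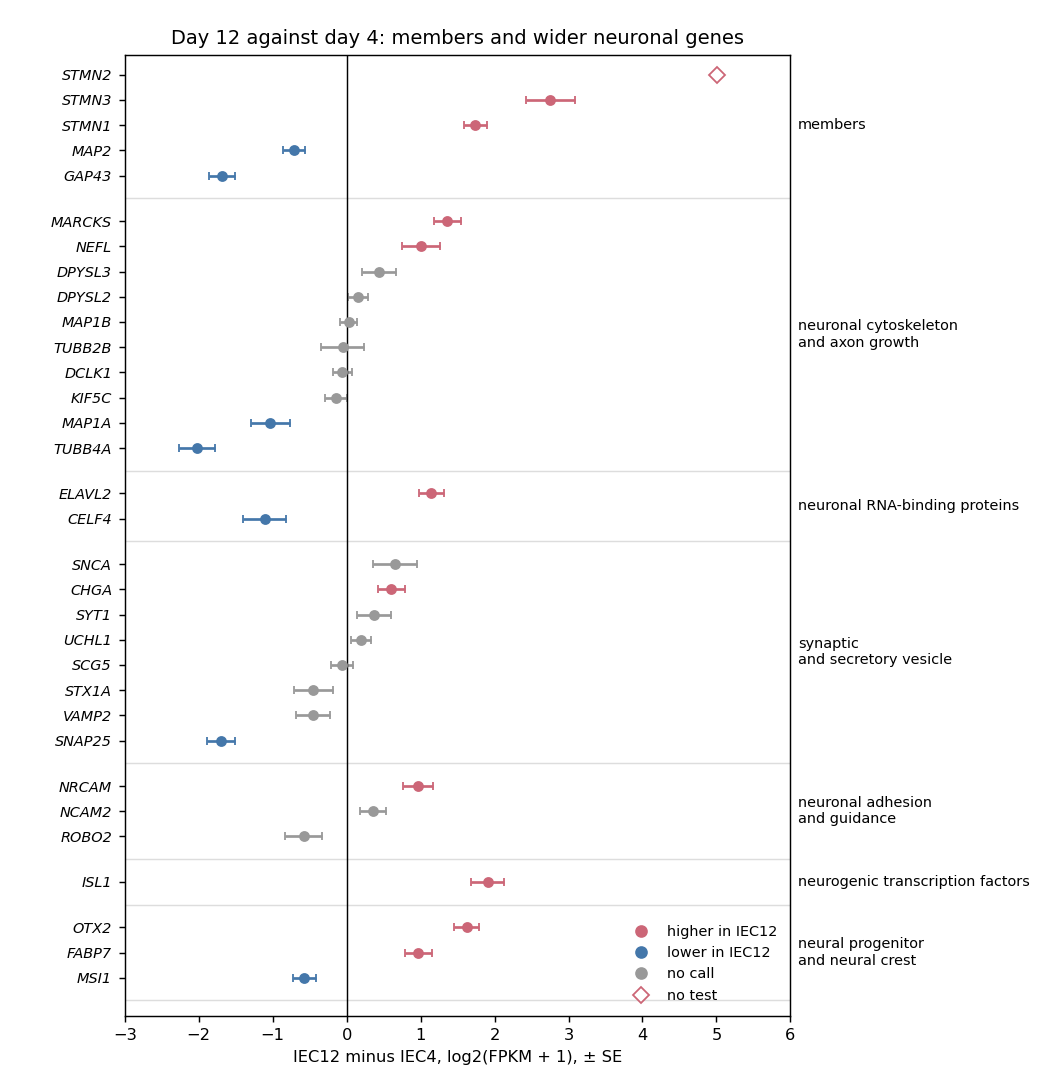
Difference between IEC12 and IEC4 on the log2(FPKM + 1) scale (x axis) with its SE, for the members that passed the filter and 27 of the 29 wider neuronal genes tested, grouped by list (y axis). Red marks genes higher and blue genes lower in IEC12 at an adjusted p under 0.05, grey marks no call, and STMN2 (open diamond) has no test. STMN3, NRCAM, NCAM2 and MSI1 passed the filter through 1 group alone, and CHGA passed only with IEC12 counted. STMN3, NRCAM, MSI1 and CHGA are coloured by the fit, although selection favoured their differences and the text gives them with no p-value. STMN2 lies at 5.01, and in most lists some genes lie above and others below 0.

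Among synaptic and secretory vesicle genes, 1 of 9 tested rose from IEC4 to IEC12 and 2 fell, where 17.3% and 26.9% of all genes did. CHGA (chromogranin A), the one counted as risen, went from 0.613 ± 0.153 to 1.47 ± 0.407 FPKM, a log2 difference of 0.60. CHGA reached 1 FPKM in IEC2 replicates A and B and in IEC12, so it passed the filter only with IEC12 counted. Selection thus favoured its higher level at day 12, and the difference is given with no p-value. The call of CHGA was kept under 8 of 13 alternative settings. SNAP25, a membrane protein of vesicle fusion, ran opposite to STMN2, at 72.5 ± 14.8 FPKM in IEC2, 12.9 ± 1.02 in IEC4 and 3.33 ± 0.681 in IEC12 and listed at 0 in AOC. It fell by 2.38 on the log2 scale from day 2 to day 4 (limma adjusted p = 2.38e-05) and by 1.70 from day 4 to day 12 (adjusted p = 0.000176), and no IEC groups overlapped. SCG5, a chaperone of the secretory pathway, was at 101 ± 5.38, 32.9 ± 5.12 and 31.4 ± 4.16 FPKM and at 0.0316 in AOC. UCHL1, an abundant neuronal ubiquitin hydrolase, was at 427 ± 54.4, 786 ± 89.7 and 895 ± 28.1 FPKM and at 877 ± 32.5 in AOC, which overlapped IEC12. SYN1, a synaptic vesicle protein, was listed at 0 in the 3 IEC12 libraries, and SYP (synaptophysin) had a mean of 0.430 FPKM there.

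Of 8 neuronal RNA-binding proteins found, 2 passed the filter in the IEC libraries. CELF4 peaked at day 4, at 0.742 ± 0.175, 10.1 ± 4.40 and 4.01 ± 1.26 FPKM in IEC2, IEC4 and IEC12, and fell by 1.11 from IEC4 to IEC12 (limma adjusted p = 0.0130). ELAVL2, a relative of ELAVL4, had its lowest stage at day 4, at 7.17 ± 1.17, 1.17 ± 0.170 and 3.79 ± 0.230 FPKM, and rose by 1.15 from IEC4 to IEC12 (adjusted p = 0.000788). Neither exceeded its IEC2 or IEC4 high at day 12. RBFOX3, the antigen of the NeuN antibody, had an IEC12 mean of 0.141 FPKM.

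Of 11 neuronal adhesion and guidance genes found, 4 were in the fit, and NCAM2 and ROBO2 were not called from IEC4 to IEC12. NRCAM, an adhesion molecule of growing axons, was at 0.732 ± 0.185, 0.237 ± 0.303 and 1.38 ± 0.266 FPKM in IEC2, IEC4 and IEC12 and differed between IEC12 and IEC4 by 0.96 on the log2 scale, given with no test because it passed the filter through IEC12 alone. ROBO2, a receptor of axon guidance, was the highest of the list, at 7.32 ± 0.958, 9.72 ± 2.63 and 6.18 ± 1.94 FPKM, and its difference from IEC4 to IEC12 (-0.58, limma adjusted p = 0.0833) was not called. NCAM1 had an IEC12 mean of 0.0190 FPKM.

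Among transcription factors and progenitor genes, 3 of 4 in the fit rose from IEC4 to IEC12, where 17.3% of all genes did. These were 1 of 1 neurogenic factor and 2 of 3 progenitor genes. The other was MSI1, at 1.10 ± 0.0508 FPKM in IEC4 and 0.417 ± 0.177 in IEC12, which passed the filter through IEC4 alone, so that its lower level at day 12 was built in and is given with no test. OTX2, a homeobox factor of the anterior neural plate, was at 13.7, 14.4 and 11.3 FPKM in IEC2, 53.1, 54.6 and 37.5 in IEC4 and 140.3, 147.7 and 160.1 in IEC12, and was listed at 0 in AOC. OTX2 rose by 1.79 on the log2 scale from IEC2 to IEC4 (limma adjusted p = 5.26e-05) and by 1.62 from IEC4 to IEC12 (adjusted p = 0.000112), with no overlap of IEC groups. ISL1, a LIM homeobox factor of motor and sensory neurons and also of heart progenitors, was at 3.93 ± 0.893, 0.592 ± 0.109 and 5.09 ± 1.47 FPKM and rose by 1.91 at the later step (adjusted p = 0.000225), to a level that overlapped IEC2. FABP7, a fatty acid-binding protein of radial glia, was at 3.56 ± 0.395, 4.43 ± 0.869 and 9.60 ± 1.38 FPKM and rose by 0.97 (adjusted p = 0.00288). PAX6, a factor of neural progenitors, stayed at or below 1.17 FPKM in the IEC libraries and was at 3.50 ± 0.149 in AOC. SOX3, SOX10 and NGFR were listed at 0 in the IEC12 libraries, and 11 of 12 neurogenic factors found had an IEC12 mean under 1 FPKM.

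STMN2 is known as a target of the neuronal repressor REST and in human neurons depends on the RNA-binding protein TARDBP for the splicing of its RNA, and genes of that machinery were looked up. REST and RCOR1 were not matched by symbol and are not analysed here. TARDBP was at 11.7 ± 0.616 FPKM in IEC2, 23.3 ± 2.08 in IEC4, 31.1 ± 6.38 in IEC12 and 21.8 ± 1.98 in AOC. It rose from day 2 to day 4 (0.93 on the log2 scale, limma adjusted p = 0.00206), and the difference from day 4 to day 12 was 0.39 (SE 0.165, adjusted p = 0.0818), not called. HDAC1, a deacetylase of several repressor complexes, was at 10.7 ± 1.52, 23.7 ± 2.995 and 36.0 ± 6.004 FPKM and rose between day 2 and day 12 by 1.66 (adjusted p = 7.05e-05). HDAC2 was at 318, 217 and 249 FPKM in the IEC groups and at 106 ± 3.62 in AOC. Of 7 genes of the list tested, 1 rose and 1 fell from IEC4 to IEC12, where 17.3% and 26.9% of all genes did. HDAC1, the one that rose (0.58, adjusted p = 0.0215), kept its call under 8 of 13 alternative settings, and EHMT2, the one that fell, under 7 of 13.

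The genes whose pattern over the 12 libraries was most like that of STMN2 were looked for among 4841 genes with a symbol and a group mean of at least 10 FPKM in some group. By Pearson's r on log2(FPKM + 1), the 10 most alike were GPSM2, BAMBI, RRAGC, PAIP2B, DLX6, LIPM, AP5M1, DYNC2LI1, SNRNP25 and MAB21L1, with r from 0.986 down to 0.968. GPSM2, which helps orient the mitotic spindle, was at 19.1 ± 2.51, 24.9 ± 2.29 and 80.8 ± 2.505 FPKM in IEC2, IEC4 and IEC12 and at 10.4 ± 0.555 in AOC. BAMBI, a pseudoreceptor that dampens TGF-β and BMP signalling, was at 3.63 ± 0.2003, 4.13 ± 1.27, 43.8 ± 14.2 and 0.479 ± 0.102 FPKM. DLX6, a homeobox factor, was at 4.63 ± 0.422, 4.36 ± 1.57 and 36.5 ± 4.70 FPKM and was listed at 0 in AOC, as was MAB21L1. None of the 10 was in the neuronal lists. The share of those lists among the 4841 genes is not given here, so nothing is read from this. The libraries fall into 4 groups, so r mostly reflects the 4 group means. The choice was not stable, since 0 of the 10 remained when the 9 IEC libraries alone were used and 2 of the 10 when Spearman's rho was used.

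**Figure D4:**
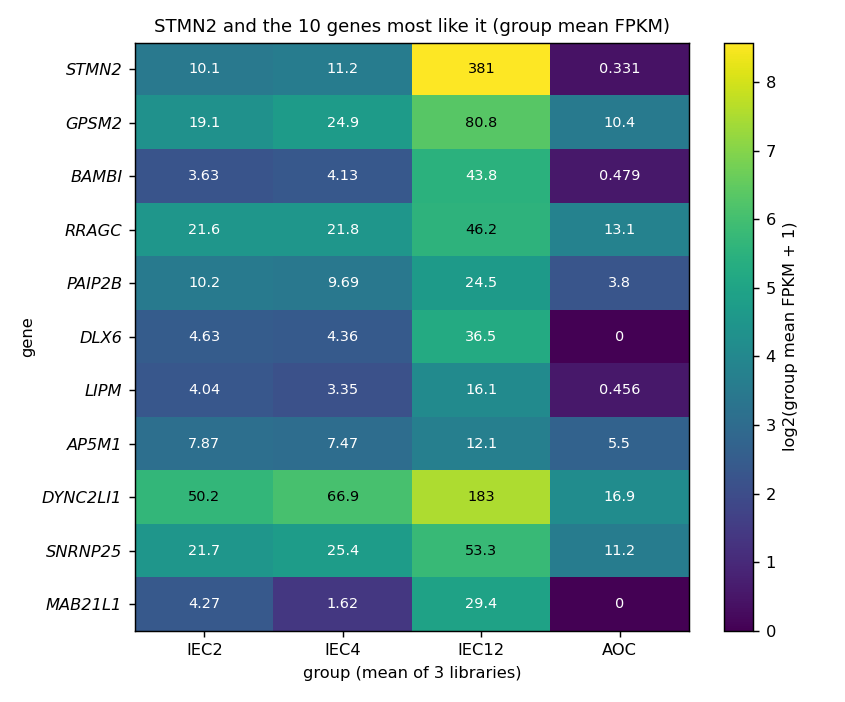
Group mean FPKM (numbers in the cells, n = 3 libraries) of STMN2 and the 10 genes with the highest Pearson r to it over 12 libraries (y axis) in IEC2, IEC4, IEC12 and AOC (x axis), coloured by log2(group mean FPKM + 1). IEC12 is the highest and AOC the lowest group in each gene, and STMN2 covers the widest range, from 0.331 to 381 FPKM.

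The other members had other neighbours. STMN2 and STMN1 had an r of 0.122 over the 12 libraries, STMN2 and MAP2 0.678 and STMN1 and MAP2 -0.377. STMN1 was most like RBX1 (r = 0.996), a ubiquitin ligase subunit, then MARCKS (0.992) and GABARAPL2 (0.992), an autophagy gene, each of which was high in IEC12 and AOC. MAP2 was most like SMARCA1 (0.995), a chromatin remodeller, PKIB (0.993), an inhibitor of protein kinase A, and MMD (0.991), each of which had its highest group mean in IEC4. The members above 10 FPKM thus followed 3 different patterns across the groups.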

How the data were processed

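RNA sequencing values were analysed for 12 libraries, 3 biological replicates each of IEC2, IEC4, IEC12 and AOC, with the replicate letter taken from the sample titles. cDNA was amplified by the Smart-Seq2 protocol. The submitters' processing notes name Bowtie2 (2.2.3), TopHat2 (2.0.12), Cufflinks (2.2.1) and the build susScr11, and the authors deposited 1 FPKM value for each of 19681 genes, of which 13998 had a symbol in the table of gene names used here. The annotation and the use of strand are not given in the sources used here. Positions are those of RefSeq for Sscrofa11.1.

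FPKM values are not counts, so limma (3.58.1, R 4.3.3) was fitted to log2(FPKM + 1), a scale that understates changes of low genes, with the variance tied to expression. The filter kept a gene if 3 or more of the fitted libraries reached 1 FPKM. It left 10542 genes for contrasts between stages (fitted on 9 IEC libraries) and 11053 for contrasts with AOC (fitted on 12 libraries). A gene was called at a Benjamini-Hochberg adjusted p-value under 0.05 over all genes tested. Genes that passed the filter through 1 group alone are given with no p-value against that group. CHGA, which reached the filter only with IEC12 counted, is treated in the same way. The fit was also run on simulated data, and no result of that run is given here. Summaries used Python 3.11.15, pandas 2.3.3, NumPy 2.4.6 and matplotlib 3.10.9.

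The members, the lists and the rules were chosen with earlier results of these data known. Members are named in full. Of each wider list, the genes named come from the 4 with the highest IEC12 mean and from up to 4 called per comparison with an absolute log2 difference above 1 and no overlap, and tested genes of the list of the REST complex and TARDBP could be named. Not every such gene is given. Of these lists, 2 genes are counted but not reported here. Genes named outside this rule are SYN1, SYP, CHGA, PRPH, INA, SOX3, SOX10, NGFR, NCAM1 and BUB1, which were chosen after their values were seen.

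Depth is unknown in reads. Relative depths estimated from the steps of low values were uncertain for IEC12 replicate A, so neither depths nor counting intervals are given.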

Additional observations from a re-analysis of the deposited data

How the results depend on the processing

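Leaving out the differences that the filter built in (STMN3 against IEC12 and TUBB3), the log2 differences of the members tested kept their direction in 218 of 218 alternative values, and 203 stayed on the same side of the threshold. The 15 calls lost are those given beside STMN1, STMN3 and GAP43, among them that of STMN3 between AOC and IEC2, which was also lost without the filter (adjusted p = 0.0852) and with equal totals (adjusted p = 0.0971). Alternatives covered the pseudocount (0.1), the filter (none), the libraries fitted (the compared pair of groups), the replicate letter as a block, the scaling of libraries (median-of-ratios or equal totals), the variance model, the limits for a call and each library left out.

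With the limits of the study (p and adjusted p under 0.001 and an absolute log2 difference above 3), 0 members were called in the contrasts between stages and in AOC against IEC2 and 1, MAP2, in AOC against IEC12, with STMN2 left out. With a pseudocount of 0.1, STMN3 (4.95 and 4.57 for IEC12 against IEC4 and IEC2) and TUBB3 (5.37 for AOC against IEC12) exceeded the limit on size, as values with no test. Wider neuronal genes called under these limits numbered 0 for IEC4 against IEC2, 0 for IEC12 against IEC4, 3 for IEC12 against IEC2, 6 for AOC against IEC12 and 6 for AOC against IEC2. These limits passed between 0.939% and 5.47% of all genes tested. Without the filter, 26 wider neuronal genes were called for IEC4 against IEC2 in place of 17, since 83 were tested in place of 29. Of all genes, 4115 of 18415 were called in that setting, against 3932 of 10542 with the filter.

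With 1 library left out, the members called ranged from 2 to 4 for IEC12 against IEC2, from 2 to 4 for AOC against IEC12 and from 3 to 4 for AOC against IEC2, in place of 4, 4 and 5. These counts include STMN3 and TUBB3 where the filter built their difference in. STMN3 failed the filter of the fit between stages without any 1 of the IEC12 libraries, and TUBB3 failed that of the other fit without any 1 of the AOC libraries. The count was 2 for IEC12 against IEC2 without IEC12 replicate A, 2 for AOC against IEC12 without AOC replicate A or B, and 3 for AOC against IEC2 without any 1 of the AOC libraries.

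Scaling moved all genes together. The median difference of all genes went from 0.20 to -0.03 for IEC4 against IEC2, from -0.15 to 0.05 for IEC12 against IEC4, from -0.21 to -0.01 for AOC against IEC12 and from -0.20 to -0.01 for AOC against IEC2 with median-of-ratios scaling, and from 0.03 to -0.18 for IEC12 against IEC2 with equal totals. With equal totals the median was 0.14 for IEC4 against IEC2 and -0.32 for IEC12 against IEC4. It was -0.25 for AOC against IEC12 and -0.45 for AOC against IEC2. STMN2 in IEC12 against IEC4 lay between 4.80 and 5.23 over its alternatives. Its difference between IEC4 and IEC2 (0.12) changed sign with median-of-ratios scaling (-0.13) and without IEC2 replicate C or IEC4 replicate B.

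The replicate letters did not pair the libraries, since deviations of same-letter libraries had correlations from -0.562 to 0.263. With the replicate block the calls of members numbered 3, 4, 4, 4 and 4 and those of wider neuronal genes 18, 14, 17, 28 and 31 in the order of contrasts above, against 3, 4, 4, 4 and 5 and 17, 14, 17, 28 and 31 without it, and the call lost was that of STMN3 (adjusted p = 0.050007). In IEC12 against IEC2, 2 of 3 libraries correlated best with their own letter, a hint from the data and not from the design, and in the other contrasts 0 of 3.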
